A study of Mus musculus with 6 samples.

Results

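The genes described here are 9 transcription factors that direct granulocyte and monocyte development: the C/EBP family members Cebpa, Cebpb, Cebpd, Cebpe and Cebpg, together with Spi1 (which encodes PU.1), Gfi1, Irf8 and Klf4. They were taken by gene symbol from a table of 55421 genes, and all 9 were present, each as a single row. The cells were mouse leukemia cells of the AE9a model on a C57BL/6 background, in which a retrovirus carries AML1-ETO9a, a splice form of the t(8;21) fusion AML1-ETO. In this model the virus is put into hematopoietic stem and progenitor cells, which are then transplanted into irradiated mice. The virus marks infected cells with GFP, and the study's methods call the sequenced material isolated leukemia cells, without saying for these libraries whether GFP+ cells were sorted. AE9a-Ddit4+/+ cells (3 libraries) carry intact Ddit4 and AE9a-Ddit4-/- cells (3 libraries) are labelled as its knockout, and cells of both genotypes carry the AE9a retrovirus. The labels give neither an age nor a drug treatment for any library. The study's methods describe the marrow donors for AE9a transduction as young adult mice. The labels do not say whether the libraries of a genotype came from separate leukemias. In the study, only a small minority of mice first transplanted with AE9a-Ddit4-/- cells developed leukemia. The libraries of that genotype may therefore share a primary leukemia. The p-values, SDs and statements of overlap describe only the spread between these libraries. DDIT4 is a stress-induced inhibitor of the mTOR pathway, and the comparison of the genotypes asks which transcripts differ in leukemia cells without it.

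C/EBP proteins are basic leucine zipper factors that bind DNA as dimers with each other. C/EBPα starts the granulocyte and monocyte program in progenitors, C/EBPβ takes over when myeloid cells must be made under stress, C/EBPε drives the last steps of granulocyte maturation, C/EBPδ is an inflammatory form, and C/EBPγ lacks an activation domain and acts through its partners. PU.1 is needed by both lineages, IRF8 and KLF4 turn progenitors towards monocytes, and GFI1 favours granulocytes by repressing monocyte genes. AML1-ETO is known to lower CEBPA transcription and to bind PU.1 and C/EBPα, which is part of how the fusion holds myeloid cells immature. Mouse C/EBPα and C/EBPβ proteins come in long and short forms made from alternative translation starts of 1 messenger RNA, and mTOR is known to shift that balance, which counts per gene do not show.

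The libraries held between 62141558 and 72717681 counts assigned to genes. Ddit4 itself was lower in AE9a-Ddit4-/- cells, at 77.7 to 85.9 CPM (counts per 1000000) where AE9a-Ddit4+/+ had 161 to 342. The log2 difference was -1.56 (adjusted p = 0.00635, edgeR quasi-likelihood test). By western blot the study found no DDIT4 protein in AE9a-Ddit4-/- leukemia cells. Counts per gene do not show whether the remaining RNA came from the targeted allele or from other cells. The groups also differed elsewhere. Mitochondrial genes took 5.03% to 7.90% of the counts in AE9a-Ddit4+/+ and 11.3% to 16.4% in AE9a-Ddit4-/-. Ddx3y, a Y-linked gene, stood at 88.2 to 125 CPM in AE9a-Ddit4-/- and at no more than 0.0774 CPM in AE9a-Ddit4+/+. Xist, an X-linked RNA of female cells, was at 566 to 1032 CPM in AE9a-Ddit4+/+ and at 20.3 to 129 CPM in AE9a-Ddit4-/-. The sex of the cells and the genotype therefore cannot be told apart. Xist RNA was still present beside Ddx3y in the AE9a-Ddit4-/- libraries, and its source was not tested. Runx1t1, whose coding part is the ETO side of the AE9a fusion, was at 6.47 to 18.1 CPM in AE9a-Ddit4+/+ and at 69.9 to 206 CPM in AE9a-Ddit4-/- (log2 fold change 3.55, adjusted p = 0.00295), while Runx1, the AML1 side, was at 152 ± 19.7 and 220 ± 78.2 CPM (SD, n = 3 each, adjusted p = 0.186). Markers are called higher or lower here by edgeR at an adjusted p below 0.05. Of all 18375 genes tested, 19.4% were called higher and 10.7% lower in this way. Summed erythroid markers were at 8187 to 16866 CPM in AE9a-Ddit4+/+ and at 524 to 1114 CPM in AE9a-Ddit4-/-, and 12 of 14 tested were lower. Of the stem and progenitor markers 10 of 11 were higher, with sums of 36.1 to 76.7 and 1054 to 1309 CPM. Kit, among the 10, was at 14.6 to 31.6 CPM in AE9a-Ddit4+/+ and at 304 to 509 CPM in AE9a-Ddit4-/-. The study describes leukemia of this model as lineage-negative and c-Kit-positive. Megakaryocyte markers summed to 143 to 226 and 2420 to 3347 CPM (9 of 12 higher, 1 lower), mast cell and basophil markers to 327 to 391 and 1803 to 2259 CPM (5 of 10 higher), B cell markers to 1.05 to 5.45 and 71.2 to 139 CPM (8 of 9 higher), T and NK cell markers to 10.9 to 48.7 and 137 to 186 CPM (12 of 13 higher), dendritic cell markers to 64.2 to 194 and 255 to 476 CPM (6 of 13 higher), stroma and endothelium markers to 10.7 to 18.6 and 166 to 199 CPM (5 of 10 higher) and eosinophil markers to 6.20 to 8.66 and 17.4 to 31.6 CPM (3 of 5 higher). At or under 12 counts in every AE9a-Ddit4+/+ library were 6 tested T and NK cell markers, 2 B cell markers and 1 each of the dendritic cell, megakaryocyte, eosinophil and stroma lists, and no tested marker was that low in all AE9a-Ddit4-/- libraries. In bulk RNA, fewer cells of a type and less RNA per cell cannot be told apart, and the part of these differences in the results on the factors was not tested.

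Of the 9 factors, Cebpb alone passed the test, and it was higher in AE9a-Ddit4-/- cells. The share of all 18375 genes tested that passed (adjusted p below 0.05, edgeR) was 30.1%, with 19.4% higher and 10.7% lower. None of the 9 factors was called lower. Without adjustment 3 of the 9 had a p below 0.05, against 42.4% of all genes, namely Cebpb, Cebpe and Spi1, and DESeq2 likewise called Cebpb higher and no factor lower. The 3 libraries of each genotype did not overlap for 2 of the 9, Cebpb and Cebpe, against 50.1% of all genes. The median log2 fold change of the 9 was -0.03 and the median size of the change 0.56, beside 0.04 and 0.75 over all genes tested and -0.17 and 0.54 over the 8218 genes averaging more than 4 on the log2 CPM scale. All 9 were well counted, with 171 to 13131 counts per library. The 95% interval of the log2 fold change spanned 0 for 6 of the 9 factors.

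**Figure D1:**
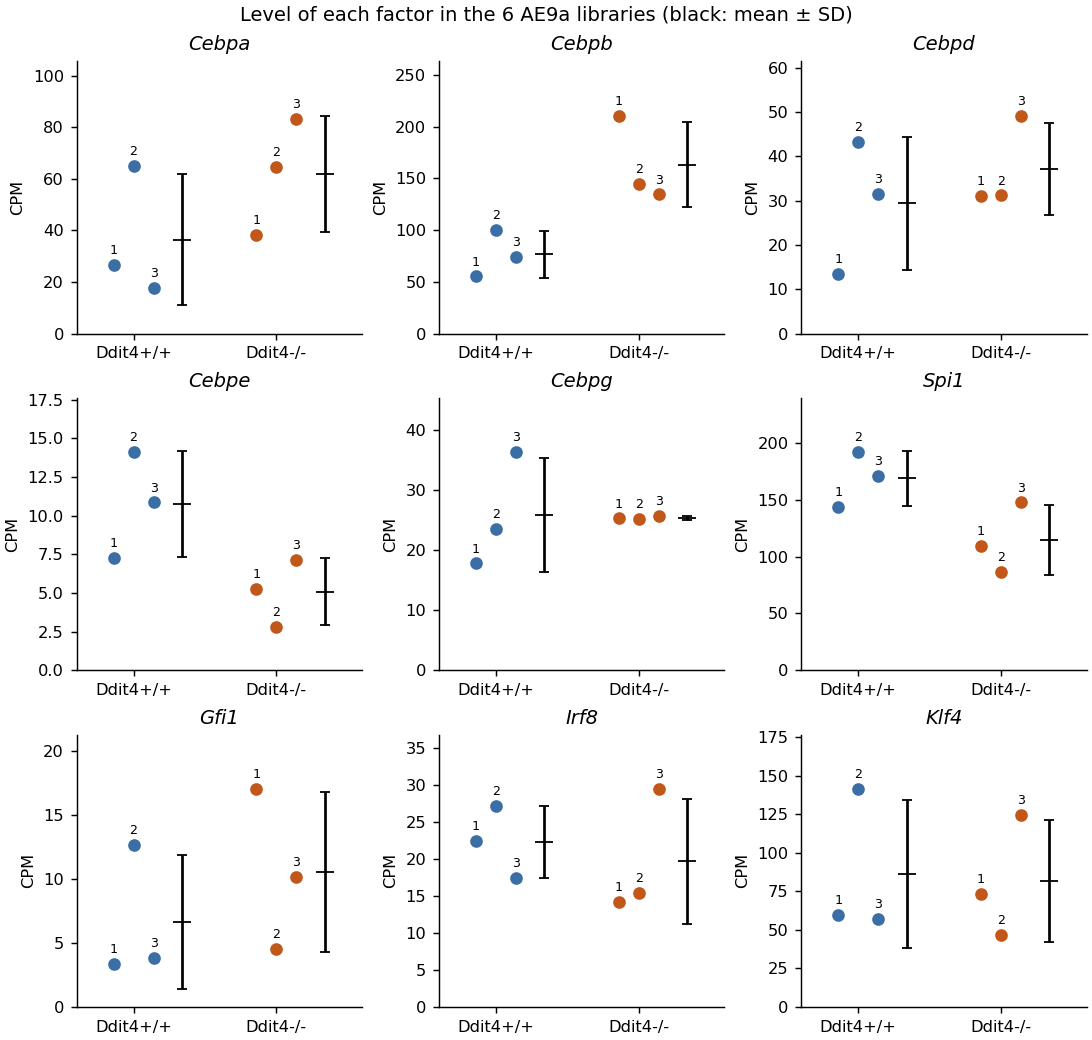
Level of each of the 9 factors in CPM (vertical axis, starting at 0 and scaled to each gene) in the 3 AE9a-Ddit4+/+ libraries (blue) and the 3 AE9a-Ddit4-/- libraries (orange), numbered by replicate, with the mean ± SD in black. Cebpb and Cebpe are the factors whose groups do not overlap, and replicate 2 is the highest AE9a-Ddit4+/+ point in 8 of the 9 panels.

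Cebpb (ENSMUSG00000056501, GRCm38, chr2:167688915-167690418, plus strand) is a gene of 1 exon whose product drives emergency granulopoiesis and macrophage genes. AE9a-Ddit4+/+ replicates 1 to 3 had 55.3, 101 and 74.2 CPM of it, and AE9a-Ddit4-/- replicates 1 to 3 had 211, 145 and 135 CPM. Every AE9a-Ddit4-/- library lay above every AE9a-Ddit4+/+ library, and AE9a-Ddit4-/- replicate 1 stood highest. On average it was at 76.7 ± 22.8 CPM without and 163 ± 41.4 CPM with the knockout (SD, n = 3 each), a 2.13-fold difference (95% interval 1.35 to 3.37) or a log2 fold change of 1.09 ± 0.28 (SE) with an adjusted p of 0.0245 by edgeR's quasi-likelihood test. The direction held without any 1 library, but the adjusted p rose to 0.0699 without AE9a-Ddit4+/+ replicate 1, to 0.0800 without AE9a-Ddit4+/+ replicate 3 and to 0.0749 without AE9a-Ddit4-/- replicate 1. Tmem189, on the opposite strand, shares 312 of the 1504 exonic bases of Cebpb and had 2661 to 5242 counts, and whether the counting used the strand is not given in the sources used here.

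Because Cebpb was the factor that passed and Cebpa the one AML1-ETO is best known to act on, the 250 bases before the RefSeq start of each (GRCm38.p6, 5′ to 3′ on the gene's strand) are shown. Capitals mark 3 kinds of motif searched on both strands: the GC box GGGCGG, the CRE core TGACG bound by CREB and ATF factors, and the TATA box TATAAA. The first is chr2:167688665-167688914 and the second chr7:35119043-35119292, both on the plus strand.
Cebpb: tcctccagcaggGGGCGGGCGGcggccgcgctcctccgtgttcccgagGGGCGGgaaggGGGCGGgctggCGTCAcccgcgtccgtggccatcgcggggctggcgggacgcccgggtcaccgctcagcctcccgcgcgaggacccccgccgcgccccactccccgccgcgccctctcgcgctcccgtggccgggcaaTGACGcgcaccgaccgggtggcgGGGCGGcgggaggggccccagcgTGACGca
Cebpa: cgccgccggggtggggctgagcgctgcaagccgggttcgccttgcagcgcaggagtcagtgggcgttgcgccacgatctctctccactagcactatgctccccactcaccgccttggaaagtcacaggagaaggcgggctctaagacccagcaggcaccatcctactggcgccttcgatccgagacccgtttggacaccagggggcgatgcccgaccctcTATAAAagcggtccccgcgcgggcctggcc

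The Cebpb window was 81.6% G and C and held 5 GC boxes, the first pair of which overlap, and 3 CRE cores starting at -180, -53 and -7 from the start. The Cebpa window was 66.4% G and C and held a TATA box at -30 with neither a GC box nor a CRE core. RefSeq windows were at hand for 6 of the 9 factors (8 windows for Cebpa, Cebpb, Cebpg, Gfi1, Irf8 and Klf4). The CRE core was in 2 of the 8 windows (17.8% of 32851 promoter windows of the same length), the GC box in 3 (32.7%) and the TATA box in 2 (12.4%). The RUNX letters TGTGGT were in 0 of the 8 (14.05% of all windows), the PU.1 letters GAGGAA in 0 (23.3%), the IRF motif (GAAA, any 2 bases, GAAA) in 0 (2.98%) and the C/EBP letters TTGCNNAA in 1, a Gfi1 window (9.56%). These matches describe letters in a window and not binding.

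Cebpa (ENSMUSG00000034957, GRCm38, chr7:35119293-35121928, plus strand) encodes the factor that progenitors need to enter the granulocyte and monocyte lineages. It stood at 26.5, 65.1 and 17.6 CPM in AE9a-Ddit4+/+ and 38.3, 64.6 and 83.1 CPM in AE9a-Ddit4-/-. The groups overlapped through AE9a-Ddit4+/+ replicate 2, which matched the second AE9a-Ddit4-/- library. The log2 fold change was 0.77 ± 0.51 (SE, 95% interval -0.41 to 1.95, edgeR adjusted p = 0.290), which in folds runs from 0.751 to 3.87. This value rested on AE9a-Ddit4+/+ replicate 2: without it the log2 fold change was 1.49 and passed the test (edgeR adjusted p = 0.0280), and without any other library it lay between 0.43 and 1.02 and did not pass.

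Cebpe (ENSMUSG00000052435, GRCm38, chr14:54710360-54712174, minus strand), needed for secondary granules and segmented nuclei of neutrophils, was the other factor whose groups did not overlap. It stood at 7.27, 14.1 and 10.9 CPM in AE9a-Ddit4+/+ and 5.24, 2.81 and 7.15 CPM in AE9a-Ddit4-/-. AE9a-Ddit4-/- replicate 3 lay just under AE9a-Ddit4+/+ replicate 1, and AE9a-Ddit4-/- replicate 2 was lowest. The log2 fold change was -1.08 ± 0.44 (SE, 95% interval -2.12 to -0.05) and did not pass the test (edgeR quasi-likelihood test across all genes, adjusted p = 0.105, between 0.0543 and 0.226 over the other settings tried). Summed neutrophil markers stood beside it at 8929, 12645 and 7714 CPM in AE9a-Ddit4+/+ and at 4124, 2120 and 5687 CPM in AE9a-Ddit4-/-. Of the 15 neutrophil markers 5 were lower and 1, Csf3r, was higher by edgeR, beside 10.7% and 19.4% of all genes tested. An unadjusted p below 0.05 was found for 11, and DESeq2 called 9 lower and 2 higher. None was at or under 12 counts in every library of a genotype. AE9a-Ddit4+/+ replicate 2 was highest and AE9a-Ddit4-/- replicate 2 lowest on both measures, and the part of neutrophil content in the Cebpe value was not tested.

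Cebpd and Cebpg showed no difference past the test. Cebpd (ENSMUSG00000071637, GRCm38, chr16:15887286-15891031, plus strand), a C/EBP gene of the acute phase response, was at 13.4, 43.3 and 31.6 CPM in AE9a-Ddit4+/+ and at 31.0, 31.2 and 49.2 CPM in AE9a-Ddit4-/-. These ranges overlapped widely, and the log2 fold change was 0.34 ± 0.43 (SE, 95% interval -0.66 to 1.33, edgeR adjusted p = 0.586). Without AE9a-Ddit4+/+ replicate 1 it was -0.01. On chromosome 16 the 261 genes averaging more than 4 on the log2 CPM scale had a median 0.42 above that of all genes so expressed, against shifts between -0.27 and 0.04 for the chromosomes of the other factors, and the part of this in the Cebpd value was not tested. Spidr shares 562 exonic bases with Cebpd on the opposite strand and had 746 to 1425 counts.

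Cebpg (ENSMUSG00000056216, GRCm38, chr7:35046422-35056573, minus strand) is the neighbour of Cebpa, 62719 bases away. It was at 17.8, 23.4 and 36.2 CPM in AE9a-Ddit4+/+ and at 25.2, 25.1 and 25.6 CPM in AE9a-Ddit4-/-. The AE9a-Ddit4-/- libraries lay inside the AE9a-Ddit4+/+ range and differed from each other by a coefficient of variation of 1.01%, against 36.7% in AE9a-Ddit4+/+. The log2 fold change was -0.03 ± 0.29 (SE, 95% interval -0.70 to 0.65, edgeR adjusted p = 0.953), and without AE9a-Ddit4+/+ replicate 3 it was 0.29.

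**Figure D2:**
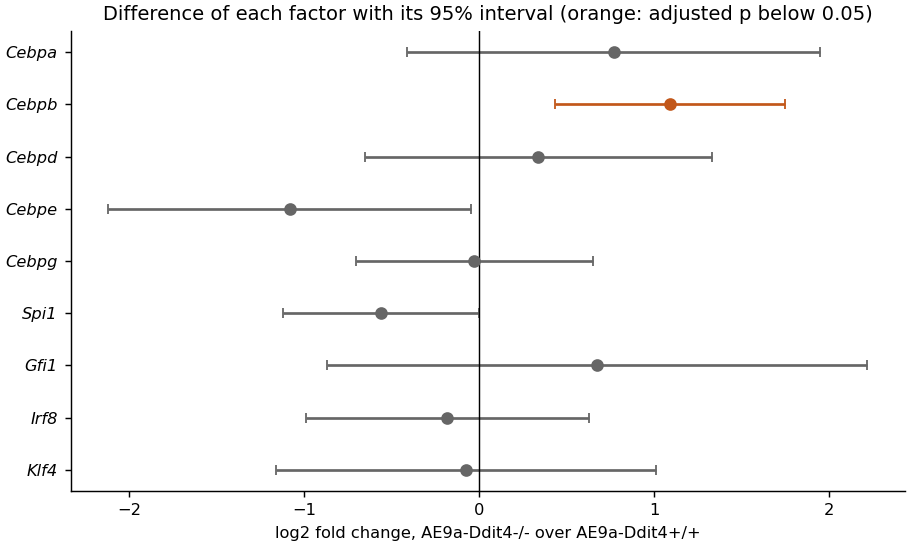
Log2 fold change of AE9a-Ddit4-/- over AE9a-Ddit4+/+ for each factor (horizontal axis) with its 95% interval from the edgeR fit. Cebpb, in orange, is the only factor past an adjusted p of 0.05, the intervals of Cebpe and Spi1 end just below 0, and those of the other 6 span 0.

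The make-up of the C/EBP transcripts was compared within each library, as the share of each gene in the summed C/EBP counts per kilobase of exon, which does not depend on how libraries were scaled to each other. Cebpb made up most of the total everywhere, with 61.9%, 56.4% and 61.96% in AE9a-Ddit4+/+ and 81.7%, 70.9% and 61.95% in AE9a-Ddit4-/- (exact permutation p = 0.2). Cebpe took 9.86%, 9.57% and 11.0% in AE9a-Ddit4+/+ and 2.46%, 1.67% and 3.99% in AE9a-Ddit4-/-. Its share was thus 10.1 ± 0.753% in AE9a-Ddit4+/+ and 2.70 ± 1.18% in AE9a-Ddit4-/- (SD, n = 3 each), with no overlap (exact two-sided permutation p = 0.1, which is the lowest value this design can give, or 0.25 after adjustment over the 5 shares). The Cebpg share was 5.64 ± 2.31% and 3.02 ± 0.355% (exact permutation p = 0.1, adjusted 0.25), again with every AE9a-Ddit4-/- library below every AE9a-Ddit4+/+ library. Shares are parts of a whole, so a larger part for 1 gene lowers the summed part of the others. In CPM, Cebpg itself was at 25.8 ± 9.47 in AE9a-Ddit4+/+ and 25.3 ± 0.256 in AE9a-Ddit4-/- (SD, n = 3 each). The share of Cebpa was 15.4 ± 6.37% and 16.1 ± 6.89% and that of Cebpd 8.78 ± 2.43% and 6.68 ± 2.19%, differences well within the spread of the libraries (exact permutation p = 0.7 and 0.3). With each library left out in turn the change in the Cebpe share lay between -8.08 and -6.92 percentage points. The other shares moved more, with Cebpg going from -2.63 points to -1.40 without AE9a-Ddit4+/+ replicate 3, Cebpb from 11.4 points to 6.35 without AE9a-Ddit4-/- replicate 1, Cebpd between -3.48 and -1.17 points, and Cebpa between -2.77 and 4.56 points. The small rise of the Cebpa share turned into a lower share without AE9a-Ddit4+/+ replicate 3 (-2.77 points), AE9a-Ddit4-/- replicate 2 (-0.236) or AE9a-Ddit4-/- replicate 3 (-2.12).

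**Figure D3:**
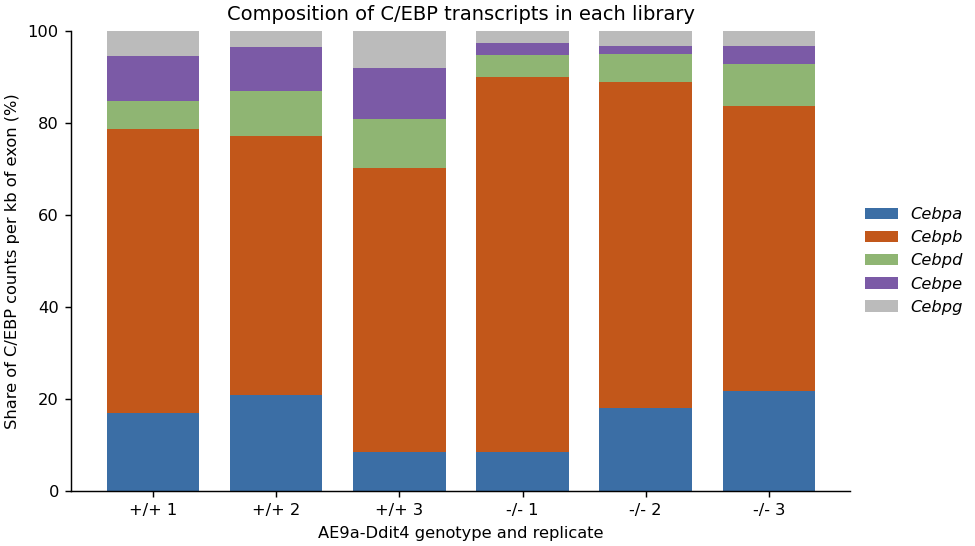
Share of each C/EBP gene in the summed C/EBP counts per kilobase of exon (vertical axis, percent) in each of the 6 libraries (horizontal axis). Cebpb fills the largest part of every bar, and the Cebpe part is 9.57% to 11.0% in the AE9a-Ddit4+/+ bars and 1.67% to 3.99% in the AE9a-Ddit4-/- bars.

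Spi1 (ENSMUSG00000002111, GRCm38, chr2:91082390-91115756, plus strand) encodes PU.1, the ETS factor whose amount steers progenitors between the myeloid and other lineages. It was at 144, 192 and 172 CPM in AE9a-Ddit4+/+ and at 110, 86.6 and 148 CPM in AE9a-Ddit4-/-. The groups overlapped only through AE9a-Ddit4-/- replicate 3, which lay above AE9a-Ddit4+/+ replicate 1. On average it was at 169 ± 24.1 and 115 ± 30.9 CPM (SD, n = 3 each). A log2 change of -0.56 ± 0.24 (SE, 95% interval -1.12 to -0.0029) did not pass after adjustment (edgeR adjusted p = 0.116). Without AE9a-Ddit4-/- replicate 3 the log2 fold change was -0.83 and passed (edgeR adjusted p = 0.0466).

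Neither of the monocyte factors differed past the test. Irf8 (ENSMUSG00000041515, GRCm38, chr8:120736358-120756694, plus strand), which specifies monocytes and dendritic cells, was at 22.5, 27.1 and 17.4 CPM in AE9a-Ddit4+/+ and at 14.2, 15.4 and 29.5 CPM in AE9a-Ddit4-/-. AE9a-Ddit4-/- replicate 3 was the highest of all 6 libraries and the other two AE9a-Ddit4-/- libraries the lowest, and the log2 fold change was -0.18 ± 0.35 (SE, 95% interval -0.99 to 0.63, edgeR adjusted p = 0.725). Klf4 (ENSMUSG00000003032, GRCm38, chr4:55527143-55532466, minus strand), which acts below IRF8 and PU.1 in monocytes, was at 59.7, 142 and 57.4 CPM in AE9a-Ddit4+/+ and at 73.6, 46.6 and 125 CPM in AE9a-Ddit4-/-. Each genotype had a single library far above its other two, and the log2 fold change was -0.08 ± 0.47 (SE, 95% interval -1.16 to 1.01, edgeR adjusted p = 0.916). The direction of both turned with a single library left out, Irf8 to 0.01 without AE9a-Ddit4-/- replicate 1 and Klf4 to 0.48 without AE9a-Ddit4+/+ replicate 2 and 0.17 without AE9a-Ddit4-/- replicate 2. Of 14 monocyte and macrophage markers, 6 were higher and none lower by edgeR, beside 19.4% and 10.7% of all genes tested. An unadjusted p below 0.05 was found for 6, and DESeq2 called 6 higher and 0 lower. Their sum was at 390, 498 and 259 CPM in AE9a-Ddit4+/+ and at 557, 270 and 829 CPM in AE9a-Ddit4-/-. As with Irf8 and Klf4, AE9a-Ddit4+/+ replicate 2 and AE9a-Ddit4-/- replicate 3 were the highest of their genotype on this sum, and its part in the values of the 2 genes was not tested.

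Gfi1 (ENSMUSG00000029275, GRCm38, chr5:107716657-107726036, minus strand), a zinc finger repressor that holds back monocyte genes in granulocyte progenitors, was the most variable of the 9. It was at 3.37, 12.6 and 3.85 CPM in AE9a-Ddit4+/+ and at 17.0, 4.54 and 10.1 CPM in AE9a-Ddit4-/-. The coefficients of variation were 78.7% and 59.2%, and the ranges overlapped. The log2 fold change was 0.67 ± 0.66 (SE, 95% interval -0.87 to 2.22, edgeR adjusted p = 0.480), and it ranged from 0.15 to 1.55 over the other settings without passing.

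The balances between 4 pairs of factors were compared as log2 ratios of counts per kilobase within a library. The ratio of Cebpa over Spi1 was -2.41, -1.53 and -3.26 in AE9a-Ddit4+/+ and -1.49, -0.39 and -0.80 in AE9a-Ddit4-/-. Every AE9a-Ddit4-/- library was above every AE9a-Ddit4+/+ library and the means differed by 1.51 (exact two-sided permutation p = 0.1, the smallest possible, adjusted 0.2 over the 4 ratios). The ratio of Cebpe over Klf4 was -1.74, -2.03 and -1.10 in AE9a-Ddit4+/+ and -2.52, -2.75 and -2.83 in AE9a-Ddit4-/-. It too did not overlap and was lower by a mean of -1.07 (exact permutation p = 0.1, adjusted 0.2). Gfi1 over Irf8, the balance of a granulocyte and a monocyte factor, differed by 0.99 with overlapping libraries (exact permutation p = 0.4), and Cebpa over Cebpb by -0.19 (exact permutation p = 0.6). Without AE9a-Ddit4-/- replicate 1 these became 0.35 and 0.33, and without AE9a-Ddit4+/+ replicate 2 Cebpa over Cebpb became 0.13, so its direction turned. With each library left out in turn the difference of Cebpa over Spi1 stayed between 1.08 and 1.94 and that of Cebpe over Klf4 between -1.28 and -0.81.

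**Figure D4:**
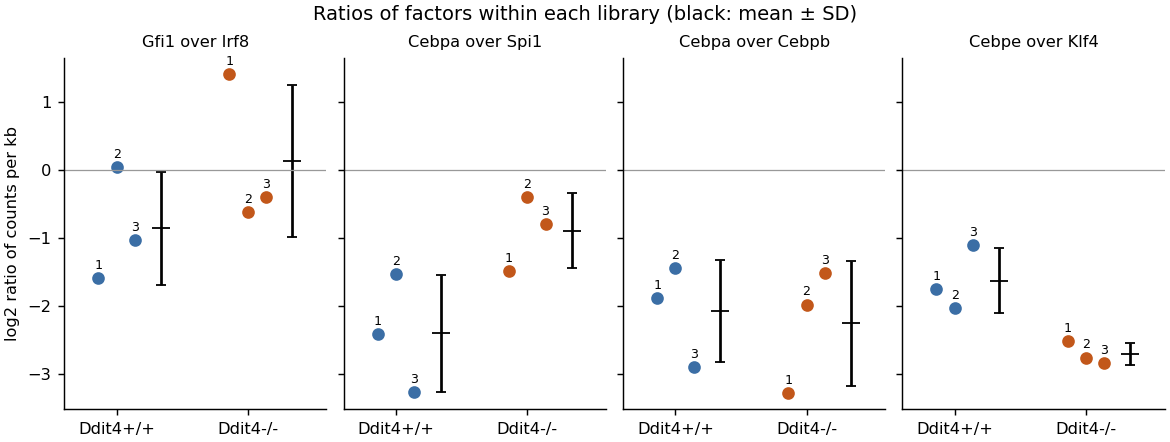
Log2 ratio of counts per kilobase (vertical axis, shared) for 4 pairs of factors in each library, AE9a-Ddit4+/+ in blue and AE9a-Ddit4-/- in orange, numbered by replicate, with the mean ± SD in black. Cebpa over Spi1 is higher and Cebpe over Klf4 lower in all 3 AE9a-Ddit4-/- libraries than in all 3 AE9a-Ddit4+/+ libraries, while the other pairs overlap.

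Genes were set roughly beside each other on the scale of CPM per kilobase of exon, taking all annotated exons of a gene together. The order therefore depends on the annotation. The mean level in AE9a-Ddit4+/+ ran in the order Spi1 (62.8 ± 8.96, SD, n = 3), Cebpb (51.0 ± 15.1), Klf4, Cebpa, Cebpe, Cebpd, Cebpg, Irf8 and Gfi1 (2.08 ± 1.63). The ranges of every pair of neighbours in that order overlapped. In AE9a-Ddit4-/- the order was Cebpb (109 ± 27.5), Spi1 (42.6 ± 11.5), Klf4, Cebpa, Cebpd, Cebpg, Cebpe, Gfi1 and Irf8 (2.79 ± 1.20). There the lowest Cebpb library (89.5) was above the highest Spi1 library (54.9), and the ranges were also apart between Cebpa and Cebpd and between Cebpd and Cebpg.

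The factors often had the same highest library within a genotype. AE9a-Ddit4+/+ replicate 2 was the highest library of its genotype for 8 of the 9 (all but Cebpg), whereas it was the highest for 37.4% of all genes tested. AE9a-Ddit4+/+ replicate 1 was lowest for 6 of the 9 (34.1% of all genes). Among AE9a-Ddit4-/- libraries replicate 3 was highest for 7 of the 9 (32.0% of all genes), the exceptions being Cebpb and Gfi1. Among the 7, Cebpg hardly differed between these libraries (25.1 to 25.6 CPM). Replicate 2 was lowest for 5 (34.2%), replicate 1 for 3 (36.0%) and replicate 3 for 1, Cebpb (29.9%). The same 2 libraries, AE9a-Ddit4+/+ replicate 2 and AE9a-Ddit4-/- replicate 3, had the highest summed neutrophil and monocyte markers of their genotype. The part of these markers in the values of the factors was not tested.

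The genes known to depend on the factors were read from the same fit. Of all genes tested, 30.1% passed the edgeR threshold and 42.4% had an unadjusted p below 0.05. The share that passed was 30% for the C/EBPα list, 28% for the PU.1 list and 34.8% for the IRF8 list. These 3 lists were thus close to genes in general. It was 10.5% for the C/EBPε list, 0% for the classical monocyte list and 45% for the GFI1 list. Of 19 granule genes that need C/EBPε, 1 was lower, 1 higher and 17 did not pass, with a median log2 fold change of -1.22 against 0.04 over all genes. The lower gene was Ltf, the secondary granule protein lactoferrin, at 894, 698 and 717 CPM in AE9a-Ddit4+/+ and 166, 54.9 and 389 CPM in AE9a-Ddit4-/-, with an adjusted p of 0.0497 at the edge of the edgeR threshold. The higher gene was Stfa1, a protease inhibitor with close copies among which reads may be split, at 7.08 ± 8.42 and 81.4 ± 18.7 CPM (SD, n = 3 each). Without adjustment 8 of the 19 had a p below 0.05, and DESeq2 called 7 lower and 1 higher. Several of these genes are neutrophil markers as well.

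Of 20 progenitor genes that depend on C/EBPα, 4 were higher and 2 lower by edgeR, 9 had an unadjusted p below 0.05 and DESeq2 called 6 higher and 2 lower, with a median log2 fold change of -0.01. Higher were Csf3r, the G-CSF receptor and a classical C/EBPα target, at 31.7, 57.8 and 30.6 CPM in AE9a-Ddit4+/+ and 140, 154 and 181 CPM in AE9a-Ddit4-/- (log2 fold change 1.98 ± 0.29, SE, edgeR adjusted p = 0.00297), the survival gene Mcl1 (0.81) and the glutathione transferase Gstm1 (1.92). Lower were the primary granule protease Elane (-1.82 ± 0.55, SE, edgeR adjusted p = 0.0413) and the ficolin Fcnb (-2.59 ± 0.56, SE, edgeR adjusted p = 0.0125). Among 25 genes that depend on PU.1, 6 were higher and 1 lower by edgeR (9 with an unadjusted p below 0.05, and 7 higher and 1 lower by DESeq2, median -0.06), with the inhibitory receptor Lilrb4a (2.29), the phosphatase Ptprc (2.43) and the Fc receptor Fcgr3 (1.99) higher and the lysosomal membrane gene Laptm5 lower (-0.63 on the log2 scale).

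Of 23 genes that depend on IRF8, 8 were higher and none lower by edgeR or DESeq2 (9 with an unadjusted p below 0.05), with a median log2 fold change of 0.31. Among the 8 were the protease inhibitor Cst3 (0.73) and the transcriptional repressor Bcl6 (1.84). Of 20 classical monocyte genes, several of them dependent on KLF4, none passed in either direction by edgeR, 1 had an unadjusted p below 0.05 and DESeq2 called 1 higher, with a median of -0.09. Among 20 genes known to be repressed by GFI1, 7 were higher and 2 lower by edgeR, 15 had an unadjusted p below 0.05 and DESeq2 called 10 higher and 2 lower, with a median of 0.87. Among those higher were the EGR corepressor Nab2 (1.57) and Id1 (1.30), an inhibitor of basic helix-loop-helix factors, while Hoxa9 (-4.31) and Gfi1b (-1.36) were lower. Some genes stand in more than 1 list, and Spi1, Irf8, Cebpe, Klf4 and Gfi1 are themselves in lists of targets.

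**Figure D5:**
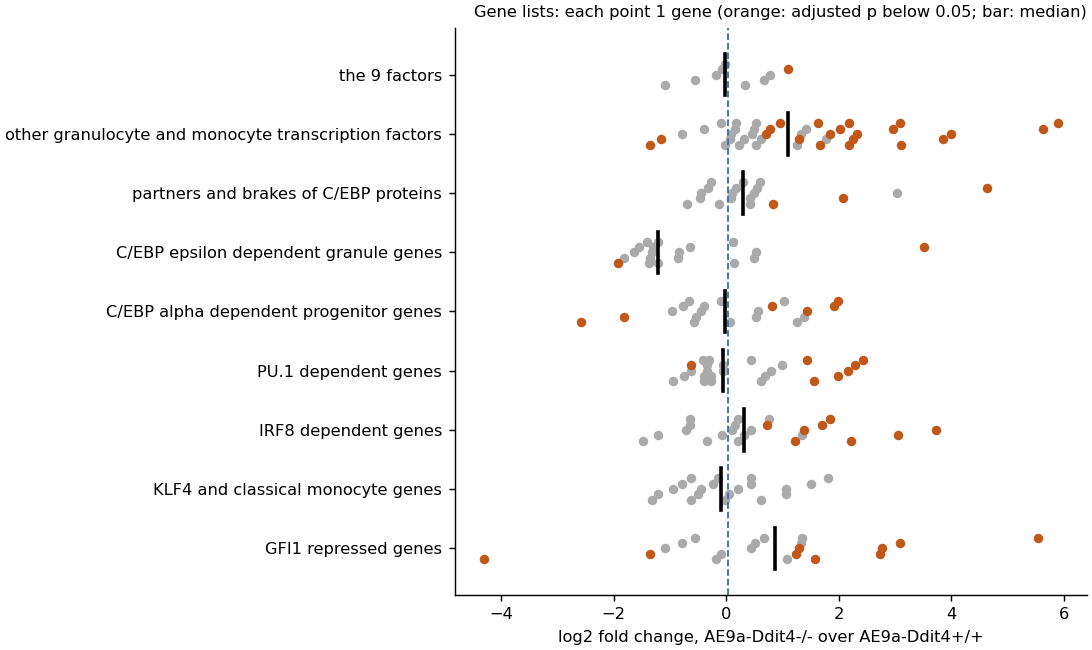
Log2 fold change of AE9a-Ddit4-/- over AE9a-Ddit4+/+ (horizontal axis) for the 9 factors and for 8 lists of related genes (vertical axis), 1 point per gene, orange where the adjusted p is below 0.05, with the median of each list as a black bar and that of all genes tested (0.04) as a dashed line. The granule genes that need C/EBPε have the lowest median (-1.22), and the other myeloid transcription factors the highest (1.10).

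Among 40 other transcription factors of granulocytes and monocytes, 19 were higher, 2 lower and 19 did not pass by edgeR, 27 had an unadjusted p below 0.05 and DESeq2 called 22 higher and 2 lower, with a median log2 fold change of 1.10. The share past the edgeR threshold was 52.5%, beside 30.1% of all genes tested. The best expressed of those higher were Nr4a1, an orphan nuclear receptor needed for patrolling monocytes, at 43.5, 126 and 45.6 CPM in AE9a-Ddit4+/+ and 5611, 2925 and 2159 CPM in AE9a-Ddit4-/- (log2 fold change 5.63 ± 0.62, SE, edgeR adjusted p = 0.00105), the AP-1 member Junb (1.63 ± 0.32, SE) and the ETS factor Elf1 (0.71 ± 0.20, SE). Nr4a1 and Junb are immediate early genes. Lower were Ikzf1, which encodes the lymphoid and myeloid regulator IKAROS, at 118 ± 22.4 and 53.0 ± 10.1 CPM, and Gfi1b, the erythroid and megakaryocyte paralog of Gfi1, at 51.9 ± 10.7 and 20.2 ± 4.75 CPM (SD, n = 3 each).

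Of 19 partners and brakes of C/EBP proteins, 3 were higher and none lower by edgeR (6 with an unadjusted p below 0.05, and 4 higher and 0 lower by DESeq2), with a median of 0.29. The share past the edgeR threshold was 15.8%, beside 30.1% of all genes tested. Trib2, a pseudokinase known to send C/EBPα protein for degradation, was at 0.348, 1.59 and 0.464 CPM in AE9a-Ddit4+/+ and at 25.5, 13.6 and 20.97 CPM in AE9a-Ddit4-/- (log2 fold change 4.64 ± 0.67, SE, edgeR adjusted p = 0.00286). The groups were far apart, with every AE9a-Ddit4+/+ library below 2 CPM. The acetyltransferase Ep300 (0.83) and the AP-1 family member Batf (2.07) were the others. C/EBP protein was not measured in these files.

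The genes whose profile over the 6 libraries was most like that of each factor were found among genes averaging more than 4 on the log2 CPM scale, by the root mean square difference of centred log2 CPM. For Cebpb these were Tet3 (0.0751), Ets2 (0.1002) and Sipa1l1 (0.102), for Spi1 Slc26a2 (0.0878), Heatr6 (0.0921) and Tmem184c (0.102), and for Cebpg Ino80b (0.0949), Prpf38b (0.0961) and Snhg8 (0.117). For Cebpa they were Atp8b4 (0.179), Palm (0.203) and Rab31 (0.228), for Cebpd Ccdc57 (0.115), Plk2 (0.206) and Mlycd (0.230), and for Cebpe Arel1 (0.129) and Abca13 (0.227). For Gfi1 they were Pag1 (0.231), Sirpa (0.240) and Jdp2 (0.256), for Irf8 D1Ertd622e (0.189), Traf3 (0.208) and Pgd (0.211), and for Klf4 S100a6 (0.160) and Xdh (0.161). Profiles over 6 libraries are few points, and these likenesses are descriptions with no test.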

How the data were processed

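RNA of AE9a-Ddit4+/+ and AE9a-Ddit4-/- leukemia cells (3 libraries each, grouped by their titles) was sequenced, and the authors deposited raw counts per gene for 55421 genes. Per the submitters' processing notes the build is GRCm38 (mm10). The aligner, counter, annotation and use of strand are not given in the sources used here. Among even counts up to 12, multiples of 4 were 1.40 to 1.62 times as frequent as the others, so a single read pair may weigh more than 1 count. A total of 27 symbols that had turned into dates were restored, and coordinates and exon lengths came from GENCODE M21 (55240 gene IDs matched).

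Genes with enough counts (filterByExpr, 18375 genes) were fitted with edgeR 4.0.16 in R 4.3.3 (TMM scaling, robust quasi-likelihood F-test, Benjamini-Hochberg, threshold 0.05). The same steps were afterwards run on counts simulated from this fit, and their recovery is not reported here. Ratios and shares used counts per kilobase and an exact permutation test. The 9 factors and all lists were chosen with earlier results of these data known. From each list of related genes the text names up to 3 genes per direction past the threshold with the highest mean CPM, and for each factor the 3 genes of most similar profile. A few genes this rule selects are not reported here. Csf3r in the Cebpe account, and Ltf, Trib2 and Nr4a1 for values by library, were singled out after their values were seen. Marker lists are given by counts and sums. DESeq2 1.42.0, other scalings and filters and leaving out each library were the alternatives.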

Additional observations from a re-analysis of the deposited data

How the results depend on the processing

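With each library left out in turn, the number of factors past the threshold lay between 0 and 2, that of lower genes between 1089 and 2078, and the log2 fold change of Cebpb between 0.87 and 1.34. The same ranges were 0.43 to 1.49 for Cebpa, -0.012 to 0.73 for Cebpd, -0.24 to 0.29 for Cebpg, -0.83 to -0.44 for Spi1, -0.63 to 0.012 for Irf8 and -0.57 to 0.48 for Klf4. At an adjusted p below 0.01, 2676 genes passed (1964 higher, 712 lower), with 0 of the 9 factors and 8 of the other myeloid factors higher, the last a count added after seeing the data. With at least 10 counts in every library 2341 genes were higher and Cebpg was at 0.036. Counts not divided by length gave a change of -4.34 percentage points for the Cebpe share and -6.51 for the Cebpg share. The direction and call of Cebpb held under both other scalings, both filters, counts divided by 4, mitochondrial genes removed and DESeq2.

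Same-numbered libraries of the 2 genotypes did not deviate together (r = -0.165, -0.194 and -0.0495 across genes). Deviations from means of so few libraries cannot show that same-numbered libraries shared no batch, so pairing by number was not settled. With a replicate block 2964 genes passed (2177 higher, 787 lower), with 0 of the 9 factors and 11 of the other myeloid factors higher, Cebpb at 1.10 (edgeR adjusted p = 0.0855) and Cebpg at 0.036. The cause was not tested for any of these changes. The biological coefficient of variation between libraries was 0.433, and each factor had at least 171 counts in every library.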
